A study of Mus musculus with 35 samples.

Results

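The endoplasmic reticulum (ER) genes described here are 40 genes for folding, export and stress signalling in the secretory pathway, picked by name from the 44853 genes of the induction table. By role they comprise 9 chaperones and co-chaperones, 2 lectin chaperones, 6 disulfide enzymes, 9 stress sensors and factors, 5 genes of translocation and signal peptide cleavage, 6 genes of the COPII coat and 3 KDEL receptors. All 40 were tested in the induction series, and 37 of them in the siRNA series, whose table holds 6275 genes that the authors chose as responsive to GATA6. Atf4, Sec61b and Sec23b are the 3 members not in that table.

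The study used KH2 mouse embryonic stem (ES) cells, of C57BL/6 x 129/Sv genotype, carrying a doxycycline (Dox)-inducible Gata6 cassette. GATA6 is a transcription factor that drives ES cells toward primitive endoderm (PrE), and the induced cells were compared over time with their untreated starting population. Untreated cells (0h) and cells at 16, 24, 48, 72, 96 and 168 h of Dox at 1 µg/mL gave 3 libraries each, and X10 XEN cells, an untreated wild type PrE-derived stem cell line of CD1 genotype, gave 2. A separate series held 6 libraries with control siRNA (siCTL) and 6 with Oct4 siRNA (siOct4), all with 1 µg/mL Dox and taken at 48 h. ES and induced cells were grown with LIF on mitomycin C-treated mouse fibroblasts, which were removed by adsorption before RNA extraction, and XEN cells without LIF. XEN cells thus differ from the induced cells in line, strain, transgene, Dox and LIF, and these cannot be told apart. The inducible cells are clonal lines. The study's methods call the replicates independent, but the labels do not say whether they came from separate cultures, so p-values measure the spread between these libraries.

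Secreted and membrane proteins enter the ER through the SEC61 channel, lose their signal peptide, and fold with the help of HSP70-type, lectin and disulfide-forming enzymes. Folded cargo leaves in COPII-coated vesicles, and KDEL receptors return escaped ER residents from the Golgi. When unfolded protein builds up, the sensors IRE1 (encoded by Ern1), PERK (Eif2ak3) and ATF6 start the unfolded protein response, with XBP1, ATF4 and CHOP (Ddit3) as downstream transcription factors. Endoderm of the early embryo secretes large amounts of basement membrane protein.

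Values are TPM, transcript abundances scaled for transcript length and to the same total in each library, and depth is unknown. Gata6 rose from a mean of 0.264 TPM at 0h to 133.8 TPM at 16 h and 344.4 TPM at 168 h, against 346.2 TPM in XEN cells. All 7 PrE markers were higher at 16 h, and all 5 ES markers were lower at 168 h. The summed TPM of these 5 was 2713 to 2960 in 0h libraries, 75.4 to 153.6 in 168 h libraries and 3.51 to 4.15 in XEN libraries. Pou5f1, which encodes OCT4, was at 781.8 to 1194 TPM in siCTL and 281.6 to 386.6 TPM in siOct4 libraries. The summed TPM of 10 fibroblast markers was 39.8 to 118.3 at 0h, 145.1 to 297.9 at 168 h and 99.8 to 103.0 in XEN cells. Of these 10 markers, 2 had a mean below 1 TPM in every induction group except 168 h, where 0 did. The part of fibroblast RNA in the changes below was not tested. Library 3 at 72 h stood apart, with an SD of log2 differences from its replicates of 0.553 to 0.568 against 0.288 to 0.380 for the third library of the other Dox groups and 0.221 to 0.293 between the first 2 libraries. In the siRNA series, libraries 1 and 2 and libraries 5 and 6 of each group, and libraries 3 and 4 of siOct4, were closer to each other (SD 0.219 to 0.406) than the other pairs of a group, siCTL 3 and 4 included (0.456 to 0.815).

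Promoters were read first, because several ER chaperone genes are known to carry the ER stress response element (ERSE), which ATF6 binds together with NF-Y. RefSeq promoters of the GRCm38.p6 build, from 250 bases before to 50 bases after the start, were matched for 34 of the 40 genes. The ERSE letters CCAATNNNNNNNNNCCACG, searched on both strands, occurred in the promoters of 7 of these 34 genes (20.6%), against 37 of 27025 genes with a promoter in the table (0.137%). ERSE-II, ATTGGNCCACG, occurred in 2 of 34 (5.88%) against 12 of all genes (0.0444%). The core TGACGTGG of the unfolded protein response element (UPRE), a site for XBP1 and ATF6, occurred in 3 of 34 (8.82%) against 193 (0.714%). The ERSE and ERSE-II share the CCACG box, and the last bases of the UPRE core overlap the complement of that box. These are matches of letters, not sites shown to be bound. Because the members were picked by name and include ER chaperone genes, a class known to carry the ERSE, the higher shares are not an independent result. The windows with the ERSE follow, read 5′ to 3′ along the gene's strand, with the element in capitals. They are shown to give the bases between and around the 2 boxes in genes that all rose, and the search itself fixes the spacing of the boxes.

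Hspa5, chr2:34772020-34772048, + strand: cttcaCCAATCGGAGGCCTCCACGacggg
Hsp90b1, chr10:86705626-86705668, - strand: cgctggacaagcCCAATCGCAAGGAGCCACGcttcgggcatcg
Hsp90b1, chr10:86705521-86705563, - strand: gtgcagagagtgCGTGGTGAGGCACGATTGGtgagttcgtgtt
Dnajc3, chr14:118937815-118937857, + strand: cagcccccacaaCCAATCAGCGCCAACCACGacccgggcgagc
Creld2, chr15:88819508-88819550, + strand: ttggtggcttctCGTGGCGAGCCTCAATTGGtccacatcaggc
Calr, chr8:84847063-84847105, - strand: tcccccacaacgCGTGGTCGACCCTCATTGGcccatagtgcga
Canx, chr11:50325788-50325830, - strand: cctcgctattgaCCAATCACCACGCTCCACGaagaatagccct
Pdia6, chr12:17266479-17266521, + strand: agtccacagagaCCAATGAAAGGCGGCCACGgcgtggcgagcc

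On each side 5 bases flank the element in Hspa5, where the GENCODE model already places an exon, and 12 bases elsewhere. Relative to the RefSeq start, the element lay from -65 to -47 in Hspa5, -105 to -87 in Dnajc3 and -98 to -80 in Pdia6. In Hsp90b1, Creld2 and Calr the element is present in reverse, and Hsp90b1 holds a copy in each orientation. The ERSE-II of Dnajb11 and Herpud1 and the UPRE core of Kdelr3, Sec23a and Sec24d are shown for the same reason.

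Dnajb11, chr16:22857847-22857867, + strand: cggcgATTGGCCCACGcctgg
Herpud1, chr8:94386365-94386399, + strand: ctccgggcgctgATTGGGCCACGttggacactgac
Kdelr3, chr15:79516366-79516397, + strand: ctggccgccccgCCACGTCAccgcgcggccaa
Sec23a, chr12:59011999-59012016, - strand: cccttTGACGTGGcagag
Sec24d, chr3:123267465-123267482, + strand: gcgccTGACGTGGcacta

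All 12 genes with a match rose by 168 h, as did most members without one. Among genes outside the member list, the ERSE was present in 30, of which 13 were tested, with 3 higher and 3 lower at 168 h. The UPRE core was present in 190 others, of which 110 were tested, with 42 higher and 13 lower. The ERSE-II was present in 10 others, of which 8 were tested, with 2 higher and 2 lower. By the same rule 22.6% of all genes tested were higher and 16.5% lower at 168 h. Outside the member list, genes with a match were thus found in both directions. Those with the UPRE core were more often higher than lower, as were all genes tested. These outside genes include some of the secretory pathway, such as Syvn1 and Derl3 with the ERSE and Txndc5 with the UPRE core. Whether the match has a part in these changes was not tested.

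ER genes rose as a group during GATA6 induction. At 168 h 37 of 40 members were changed upward, meaning limma adjusted p below 0.05 and a log2 change above 1 on the log2(TPM + 1) scale. This was the case for 22.6% of all 15057 genes tested, and 16.5% were changed downward, against 0 members. The median log2 change was 2.07 over the members and 0.09 over all genes. Their summed TPM rose from 0.407% ± 0.0137 of all TPM at 0h to 1.80% ± 0.108 at 168 h (SD, n = 3 each) and was 1.63% in XEN cells (n = 2). Without regard to size, 39 of 40 members passed upward at 168 h, against 41.1% of all genes. In 39 members every 168 h library also lay above every 0h library, against 41.9% of all genes. More cells of a secretory type and more of these RNAs per cell cannot be told apart in bulk libraries.

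**Figure D1:**
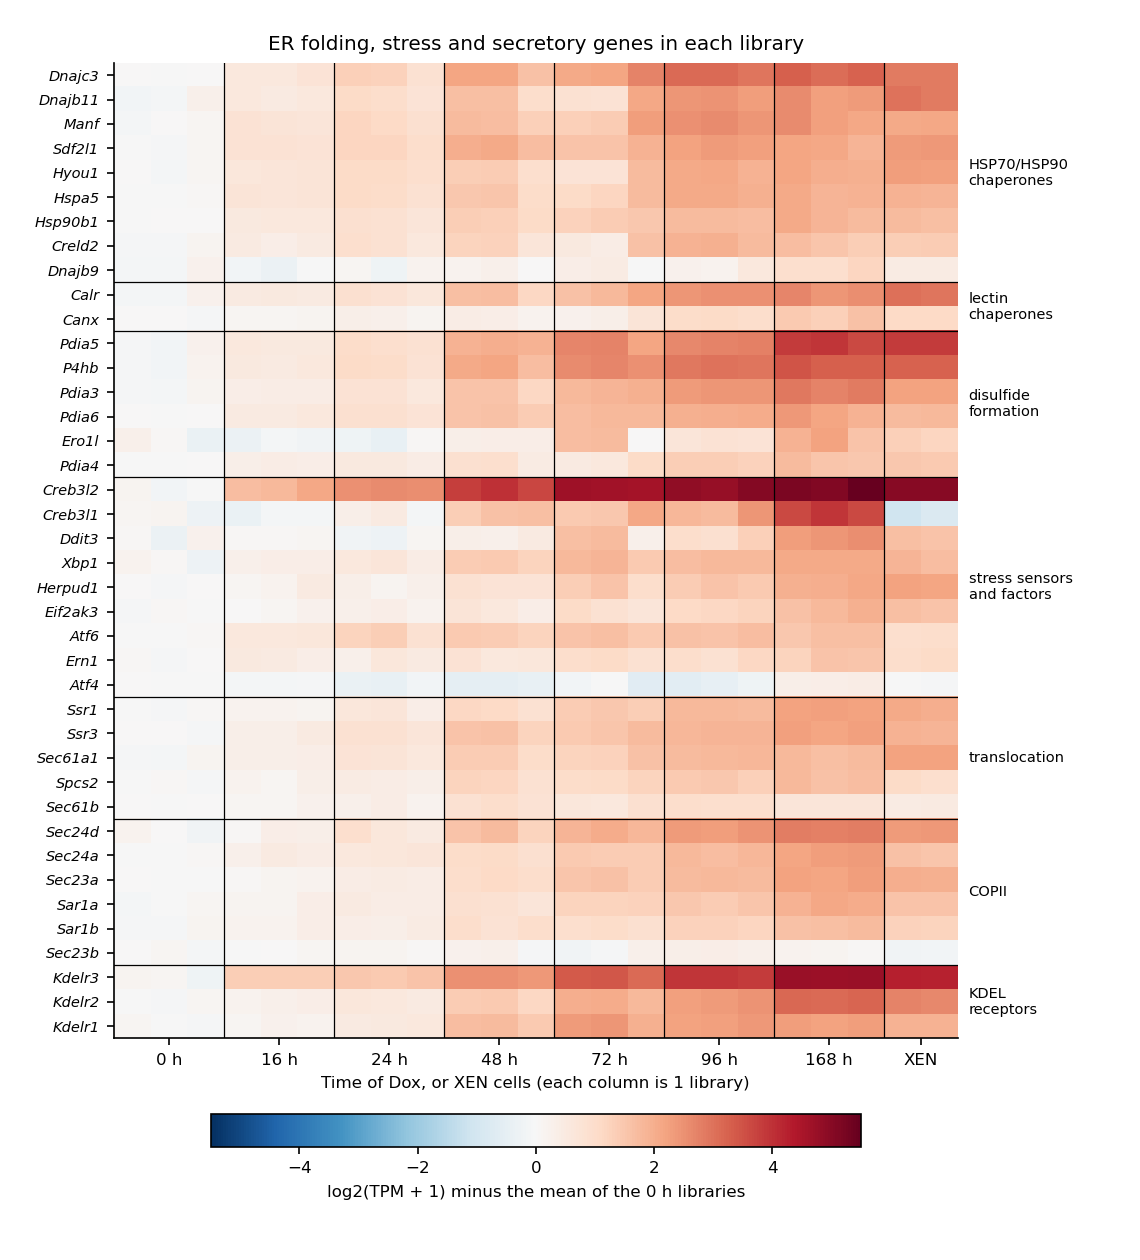
Level of each of the 40 ER genes in each of the 23 induction libraries, as the log2(TPM + 1) difference from the mean of the 3 untreated libraries, with genes grouped by role. Most genes gain color from 16 h to 168 h, although several chaperones do not gain after 96 h. Atf4 and Sec23b stay near 0, and Creb3l1 is high at 168 h and low in both XEN libraries.

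The change was gradual. At 16 h only Creb3l2 and Kdelr3 were changed upward (2 of 40; 1.97% of all genes), although 20 members passed on adjusted p alone, against 7.91% of all genes. The 20 became 5 without replicate 1 or without replicate 2 of every group. The changed members numbered 7 at 24 h, against 3.24% of all genes, and the 5 that joined were Atf6, Dnajc3, Sdf2l1, Hyou1 and Manf. At 48 h there were 26 (9.14% of all genes), at 72 h 30 (14.7%) and at 96 h 34 (15.4%). The member medians at these times were 0.35, 0.59, 1.25, 1.39 and 1.78 on the log2 scale, while that of all genes stayed between 0.00 and 0.03.

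Steps between neighbouring times were read on adjusted p alone. From 16 to 24 h 6 members rose, against 1.65% of all genes, a count that ran from 0 to 28 when 1 replicate was left out and was 12 without 48 h library 3 and 13 without 72 h library 3. From 24 to 48 h 27 rose (17.5% of all genes), from 48 to 72 h 17 (16.3%), from 72 to 96 h 27 (8.35%) and from 96 to 168 h 24 (26.5%). Without replicate 1 or without replicate 2 of every group, the count was 0 from 72 to 96 h and 9 from 48 to 72 h. From 96 to 168 h it was 14 without replicate 1. From 24 to 48 h it stayed between 20 and 35 with each replicate left out. In the last step 1 member fell, Sec61b, which encodes a small subunit of the SEC61 channel, by 0.26 on the log2 scale (limma adjusted p = 0.00571), against 16.2% of all genes. Its limma adjusted p was 0.145 without replicate 1 and 0.0660 without replicate 2.

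**Figure D2:**
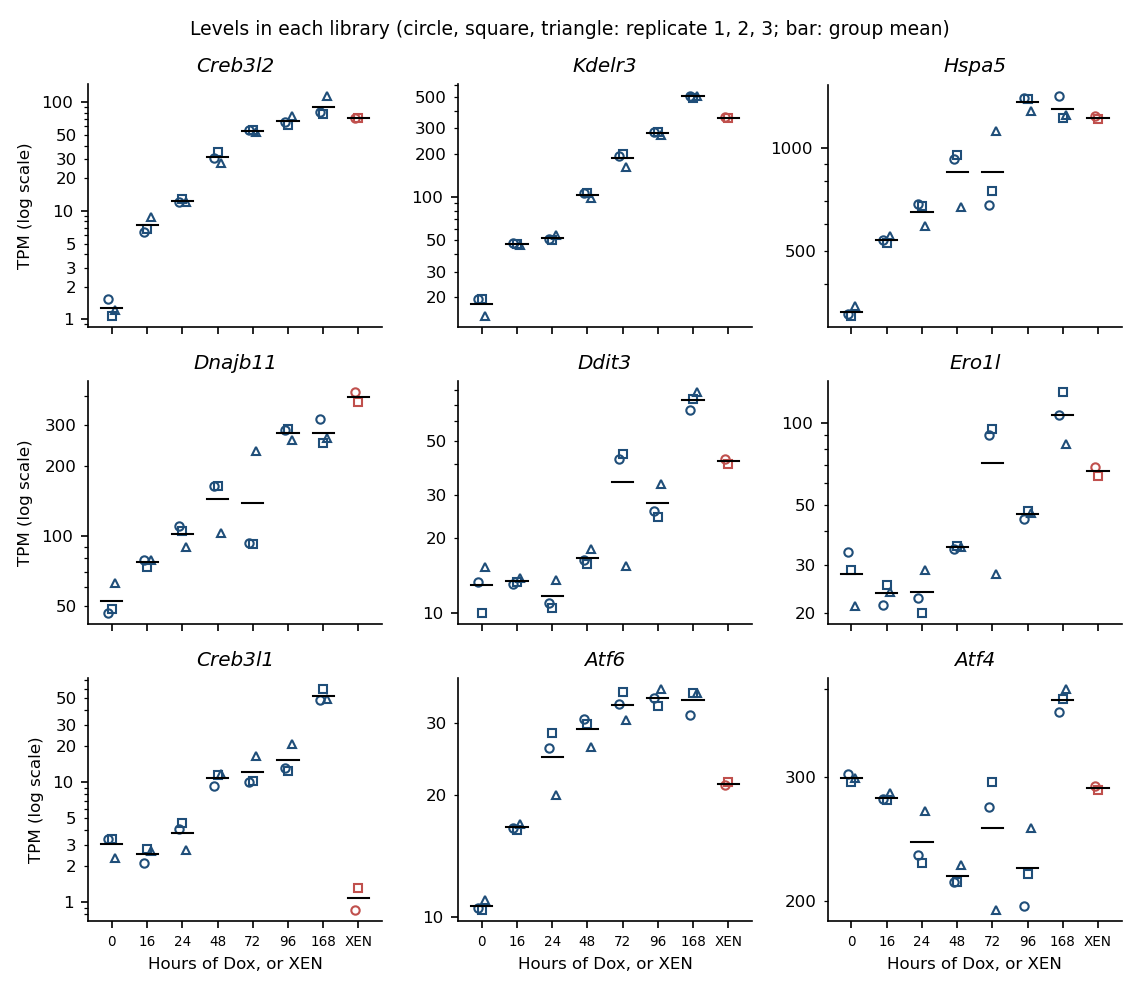
TPM of selected members in each library over hours of Dox, on log axes, with XEN libraries at the right. Points are libraries and horizontal bars are group means. Creb3l2 and Kdelr3 climb from the first time point, whereas Ddit3 and Creb3l1 make their largest step between 96 and 168 h and Atf4 dips before it.

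Among chaperones and co-chaperones all 9 members rose by 168 h, with a median log2 change of 2.04 and a range of 1.02 to 3.19. Hspa5 encodes BiP, the main HSP70 of the ER. It lay at 328.5, 323.6 and 346.7 TPM at 0h, at 539.5, 527.3 and 552.5 TPM at 16 h, and at 1426, 1226 and 1254 TPM at 168 h. The groups did not overlap, and the log2 change at 168 h was 1.96 ± 0.14 (SE, adjusted p = 2.06e-10 in limma). At 96 h the 3 libraries, with 1401, 1395 and 1287 TPM, were already at that level. Dnajc3, a BiP co-chaperone that also inhibits PERK, had the largest change of this group. It went from 9.54, 9.27 and 9.54 TPM at 0h to 99.8, 87.1 and 97.1 TPM at 168 h. This was a log2 change of 3.19 ± 0.15 (SE, adjusted p = 5.53e-13 in limma), with all treated libraries from 16 h on above the untreated ones.

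Hsp90b1, the ER form of HSP90, had the highest level of this group among untreated cells, with 468.6, 471.7 and 471.0 TPM, and reached 1979, 1702 and 1577 TPM at 168 h. Its neighbours in the group were Hyou1, a large nucleotide exchange factor for BiP (log2 change 2.04), Manf, a secreted ER resident (2.34), Sdf2l1, a partner of BiP (2.05), and Dnajb11, a BiP co-chaperone (2.38). Creld2 changed by 1.52. Dnajb9, another BiP co-chaperone, had the smallest change (1.02) and was late. Its libraries lay between 15.2 and 29.2 TPM at all times through 96 h, and at 37.4, 36.7 and 44.7 TPM at 168 h. From 96 to 168 h it rose by 0.68 on the log2 scale (limma adjusted p = 0.000946, and 0.0540 without replicate 1). Hspa5 differed by -0.07 over the same step (limma adjusted p = 0.749). Creld2, Manf and Sdf2l1 had lower means at 168 h (159.2, 1056 and 123.9 TPM) than at 96 h (201.5, 1180 and 143.2 TPM). These lower means did not pass the test.

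At 72 h most of the chaperones split by library. Dnajb11 was at 93.6 and 92.4 TPM in the first 2 libraries and at 231.8 TPM in library 3. Creld2 was at 79.1, 73.4 and 169.9 TPM, Hyou1 at 97.9, 96.9 and 194.4 TPM, Manf at 518.7, 549.0 and 1009 TPM, and Hspa5 at 684.1, 750.9 and 1126 TPM. Library 3 was thus the high one for each of these 5 genes, as for Dnajc3 and Sdf2l1. It was so by less for Hsp90b1 (1142, 1225 and 1300 TPM), and it was the lowest for Dnajb9 (24.4, 26.2 and 18.7 TPM). For Ero1l, the oxidase of disulfide formation, and Ddit3 it was the low one, with 90.2, 94.8 and 27.7 TPM and with 42.2, 44.3 and 15.5 TPM. Without this library, which was left out after its values were seen, 19 members rose from 48 to 72 h, against 24.8% of all genes, and 6 fell, against 17.1%, so the share that fell was near that of all genes. The 6 were Dnajb11 (by 0.59), Creld2 (by 0.58), Hyou1 (by 0.47), Sdf2l1 (by 0.35), Sec23b and Sec61b. In the same fit Ddit3 rose by 1.32 and Ero1l by 1.38, with limma adjusted p = 1.4e-06 and 5e-06, where the fit of all libraries gave 0.85 for Ddit3 (limma adjusted p = 0.0178) and 0.81 for Ero1l (limma adjusted p = 0.0515). Without replicate 1 or 2 of every group the adjusted p of Ddit3 in limma was 0.371 or 0.354. From 72 to 96 h, again without library 3, 28 members rose, against 17.3% of all genes, and 3 fell, against 21.8%, which were Ero1l (by 0.99), Ddit3 (by 0.63) and Atf4 (by 0.35). Library 3 at 48 h was also the lowest for Dnajb11 (103.0 TPM against 164.7 and 164.9) and Hspa5 (675.0 TPM against 932.4 and 953.6). Without it 13 members rose from 48 to 72 h, against 11.1% of all genes, and 1 fell, against 10.6%.

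Both lectin chaperones rose. Calr and Canx bind newly made glycoproteins, Calr in the ER lumen and Canx in its membrane. Calr went from 376.0, 367.2 and 465.7 TPM at 0h to 2562, 2147 and 2342 TPM at 168 h, and was the member with the highest level there. XEN libraries were higher still, with 3238 and 3101 TPM. Canx lay at 221.6, 220.4 and 209.7 TPM at 0h and 290.7, 283.8 and 248.4 TPM at 48 h, and became changed by the fold rule only at 96 h. Its log2 change was 1.44 ± 0.10 at 168 h, against 2.55 ± 0.14 for Calr (SE, adjusted p = 7.81e-11 and 3.41e-12 in limma). A pseudogene of Calr, Calr-ps, had at most 0.213 TPM, so few reads were assigned to that copy.

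All 6 disulfide enzymes rose, with a median of 2.50. P4hb encodes a protein disulfide isomerase that is also a subunit of collagen prolyl 4-hydroxylase. It was at 166.7, 157.3 and 194.4 TPM at 0h, at 740.7, 767.9 and 565.6 TPM at 48 h and at 1875, 1679 and 1708 TPM at 168 h. Its log2 change of 3.34 ± 0.10 (SE, adjusted p = 6.52e-16 in limma) came with a rise that passed the test at every step between neighbouring times. The steps from 24 to 48 h and from 48 to 72 h passed under every alternative. Without replicate 1 the others did not, with limma adjusted p = 0.107, 0.800, 0.421 and 0.138 for the steps to 16, 24, 96 and 168 h. Pdia5, a further isomerase, changed more, by 3.80 ± 0.12 (SE, adjusted p = 1.13e-15 in limma). It lay at 15.5, 14.6 and 19.2 TPM at 0h, at 107.7, 112.4 and 116.2 TPM at 96 h, and at 246.1, 264.0 and 214.0 TPM at 168 h. Between 72 and 96 h its groups were close (log2 difference 0.19, limma adjusted p = 0.296), and it then rose by 1.10 on the log2 scale to 168 h. Pdia3, which works with the lectin chaperones on glycoproteins, changed by 2.84, Pdia6 by 2.16 and Pdia4 by 1.59.

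Ero1l, which passes electrons from the isomerases to oxygen, did not follow the isomerases at first. It was at 33.4, 28.7 and 21.1 TPM at 0h and 34.5, 35.2 and 35.0 TPM at 48 h, a log2 difference of 0.35 (limma adjusted p = 0.362). At 168 h it reached 106.6, 129.4 and 83.6 TPM, a log2 change of 1.90 ± 0.30 (SE, adjusted p = 1.35e-05 in limma), with no overlap with 0h.

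Of the 9 sensors and factors 8 were changed upward at 168 h, and Atf4 was below the fold minimum. Ern1 was at 2.51, 2.24 and 2.47 TPM at 0h and at 6.86, 9.04 and 8.71 TPM at 168 h, and had the lowest mean level of all members from 48 to 168 h. Its log2 change was 1.43 ± 0.12 (SE, adjusted p = 1.47e-09 in limma). Eif2ak3 went from 10.6, 11.6 and 10.7 TPM to 35.0, 39.8 and 44.7 TPM, and changed by 1.77 ± 0.11 (SE, adjusted p = 2.56e-11 in limma). Atf6 was the early one of the 3. Its libraries were at 10.5, 10.4 and 11.0 TPM at 0h, at 26.1, 28.3 and 19.9 TPM at 24 h, and at 31.4, 35.8 and 35.6 TPM at 168 h. The level at 48 h (30.8, 29.9 and 26.3 TPM) was near the later ones, and no step after 24 h passed the test.

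Xbp1, whose mRNA is spliced by IRE1, rose from 50.3, 47.0 and 36.9 TPM at 0h to 193.1, 193.7 and 190.7 TPM at 168 h. The log2 change was 2.09 ± 0.11 (SE, adjusted p = 2.08e-12 in limma). A gene-level TPM does not tell spliced from unspliced Xbp1. Herpud1, a membrane protein of ER-associated degradation, rose by 2.02, from 15.3, 14.4 and 15.5 TPM to 61.2, 62.9 and 68.6 TPM.

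Atf4 and Ddit3 act in the PERK branch, and each differed from most members in its course. A late step like that of Ddit3 was also seen in Dnajb9, Creb3l1 and Pdia5. Atf4 lay at 303.2, 295.2 and 298.9 TPM at 0h and at 213.1, 213.0 and 225.3 TPM at 48 h, which was lower by 0.46 on the log2 scale (limma adjusted p = 0.00182). At 96 h, with 197.3, 218.6 and 254.0 TPM, it was still lower, and at 168 h, with 370.4, 386.5 and 399.3 TPM, it was higher (log2 change 0.36 ± 0.11, SE, adjusted p = 0.00672 in limma). The difference at 168 h did not pass after median-of-ratios scaling (0.18, limma adjusted p = 0.120), without replicate 1 (limma adjusted p = 0.0521) or without replicate 2 (limma adjusted p = 0.0745). Those at 48 and 96 h did not pass without replicate 1 (limma adjusted p = 0.0584 and 0.111). ATF4 protein is controlled largely by translation, which these data do not measure. Ddit3 stayed between 9.98 and 18.1 TPM at all times through 48 h. At 72 h it was at 42.2, 44.3 and 15.5 TPM, with libraries 1 and 2 above every 96 h library. The size of its rise from 48 to 72 h depended on library 3, as given above. At 96 h it was at 25.8, 24.5 and 33.3 TPM, and at 168 h at 66.8, 73.7 and 78.6 TPM. The step from 96 to 168 h was 1.37 on the log2 scale (limma adjusted p = 0.00029), and the change from 0h was 2.43 ± 0.26 (SE, adjusted p = 5.55e-08 in limma). Ddit3 also occurs under a further gene entry, listed at 0 in all libraries.

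Creb3l2 and Creb3l1 encode membrane-bound transcription factors that are released from the ER by cleavage in the Golgi and act on secretory pathway genes. Creb3l2 (mm10 chromosome 6, 37327255 to 37442146, - strand) had the largest change of all 40 members. It was at 1.53, 1.08 and 1.23 TPM at 0h, at 6.46, 6.78 and 8.80 TPM at 16 h, at 30.6, 35.3 and 27.8 TPM at 48 h and at 80.7, 77.4 and 115.7 TPM at 168 h. Every library of each time lay above every library of the time before. The log2 change was 1.87 ± 0.13 at 16 h and 5.32 ± 0.13 at 168 h (SE, adjusted p = 6.57e-09 and 6.03e-17 in limma). Creb3l1 (chromosome 2, 91982328 to 92024502, - strand) moved later. It was at 3.37, 3.38 and 2.34 TPM at 0h, at 2.14, 2.77 and 2.68 TPM at 16 h and at 9.35, 11.4 and 11.7 TPM at 48 h. It then rose by 1.73 on the log2 scale from 96 h (13.0, 12.3 and 20.7 TPM) to 168 h (48.1, 59.3 and 48.6 TPM), a change from 0h of 3.72 ± 0.20 (SE, adjusted p = 3.8e-12 in limma).

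Of the 5 genes of translocation and signal peptide cleavage 4 were changed upward at 168 h, with a median of 1.73. Sec61a1, the pore-forming subunit, rose from 92.5, 90.3 and 105.8 TPM to 331.9, 306.7 and 326.6 TPM. Ssr1 and Ssr3, subunits of the translocon-associated protein complex, changed by 2.23 and 2.22, and Spcs2, a subunit of signal peptidase, by 1.71. Sec61b started higher, at 327.1, 314.6 and 321.2 TPM, and reached 514.9, 510.9 and 506.9 TPM, a log2 change of 0.67 that passed the test but not the fold minimum. Spcs2 has a pseudogene, Spcs2-ps, with at most 0.406 TPM.

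In the COPII group 5 of 6 genes were changed upward. Within the SEC23 pair, which form the inner coat, Sec23a rose from 28.6, 27.8 and 27.3 TPM at 0h to 133.7, 127.9 and 142.0 TPM at 168 h. Sec23b was at 81.4, 86.4 and 74.5 TPM and then at 93.3, 89.4 and 83.2 TPM, with overlapping groups. The log2 change was 2.23 ± 0.06 for Sec23a (SE, adjusted p = 2.19e-16 in limma) and 0.13 ± 0.10 for Sec23b (SE, adjusted p = 0.236 in limma), the latter with the opposite sign after median-of-ratios scaling. At 0h every library had more Sec23b than Sec23a, and at 168 h every library had more Sec23a. Sec24d and Sec24a, which select cargo, changed by 2.80 and 2.27. Sec24d was at 20.3, 18.1 and 15.5 TPM at 0h and at 130.9, 126.0 and 133.4 TPM at 168 h. The GTPases that start coat assembly, Sar1a and Sar1b, changed by 2.02 and 1.67.

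The KDEL receptors had the highest median change of the 7 roles, 3.16, and differed in time course. Kdelr3 (chromosome 15, 79516411 to 79527739, + strand) lay at 19.5, 19.3 and 14.8 TPM at 0h, at 47.4, 46.9 and 46.3 TPM at 16 h, at 105.9, 106.5 and 98.1 TPM at 48 h, and at 509.2, 488.9 and 508.5 TPM at 168 h. The log2 change was 1.35 ± 0.09 at 16 h and 4.75 ± 0.09 at 168 h (SE, adjusted p = 1.07e-09 and 8.47e-19 in limma). Kdelr1 was at 42.8, 39.0 and 38.5 TPM at 0h, and its level at 72 h (209.8, 217.7 and 159.9 TPM) overlapped that at 168 h (201.8, 190.8 and 199.6 TPM). Neither step after 72 h passed the test for Kdelr1 (log2 differences 0.03 and 0.00). Kdelr2, at 48.4, 47.3 and 52.8 TPM at 0h, kept rising to 447.9, 433.1 and 468.4 TPM. In untreated cells Kdelr3 was thus the lowest of the 3 receptors in every library, and at 168 h the highest. The 250 bases before its RefSeq start, chr15:79516158-79516407 on the + strand, hold the UPRE core match in capitals, which lies in reverse at -30 to -23. They are shown because Kdelr3 had the lowest adjusted p of all members at 168 h.

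Kdelr3 upstream: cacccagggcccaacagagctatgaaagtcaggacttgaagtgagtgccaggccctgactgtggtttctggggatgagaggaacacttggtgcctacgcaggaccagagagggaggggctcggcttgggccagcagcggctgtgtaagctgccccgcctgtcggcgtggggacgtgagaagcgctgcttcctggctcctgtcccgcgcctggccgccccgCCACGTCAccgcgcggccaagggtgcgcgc

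In XEN cells 34 of 40 members were changed upward relative to 0h, against 18.9% of all genes, with a member median of 1.83. Set against cells at 168 h, the members were slightly lower in XEN cells, with a median of -0.32 against -0.14 for all genes. On adjusted p alone 22 members were lower (32.2% of all genes), 3 were higher (17.8%) and 15 did not pass. With 1 XEN library left out 14 or 15 were lower, and without replicate 1 or replicate 2 of every group 9 and 7. After median-of-ratios scaling, which moved the median of all genes to -0.02 and that of the members to -0.15, 10 were lower, against 24% of all genes, and 4 higher, against 24.2%. After this scaling the share of lower members was thus near that of all genes, and the roles of the 22 describe the unscaled fit alone. Among the 22 were all 6 COPII genes, all 3 KDEL receptors and 6 of 9 sensors and factors. The others were 3 of 5 translocation genes, 1 of 9 chaperones, and Canx, Pdia3 and Pdia6. Kdelr3 was at 358.4 and 354.1 TPM in XEN cells (log2 difference -0.49, limma adjusted p = 0.000294). The 3 higher ones were Sec61a1 (0.48), Calr (0.43) and Sdf2l1 (0.30), of which Calr and Sdf2l1 did not pass when either XEN library was left out, and none passed without replicate 1 or replicate 2 of every group.

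Creb3l1 was the 1 member past the fold minimum, against 9.17% of all genes. Its XEN libraries had 0.869 and 1.32 TPM, below each library at 168 h and also below each at 0h. The log2 difference was -4.66 ± 0.23 from 168 h (SE, adjusted p = 7.35e-12 in limma) and -0.94 from 0h (limma adjusted p = 0.00113, and 0.101 without replicate 1). Creb3l2, at 71.3 and 72.4 TPM in XEN cells, did not differ beyond the spread (log2 difference -0.32, limma adjusted p = 0.0854). Of the pair, Creb3l2 was thus high and Creb3l1 low in XEN cells.

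**Figure D3:**
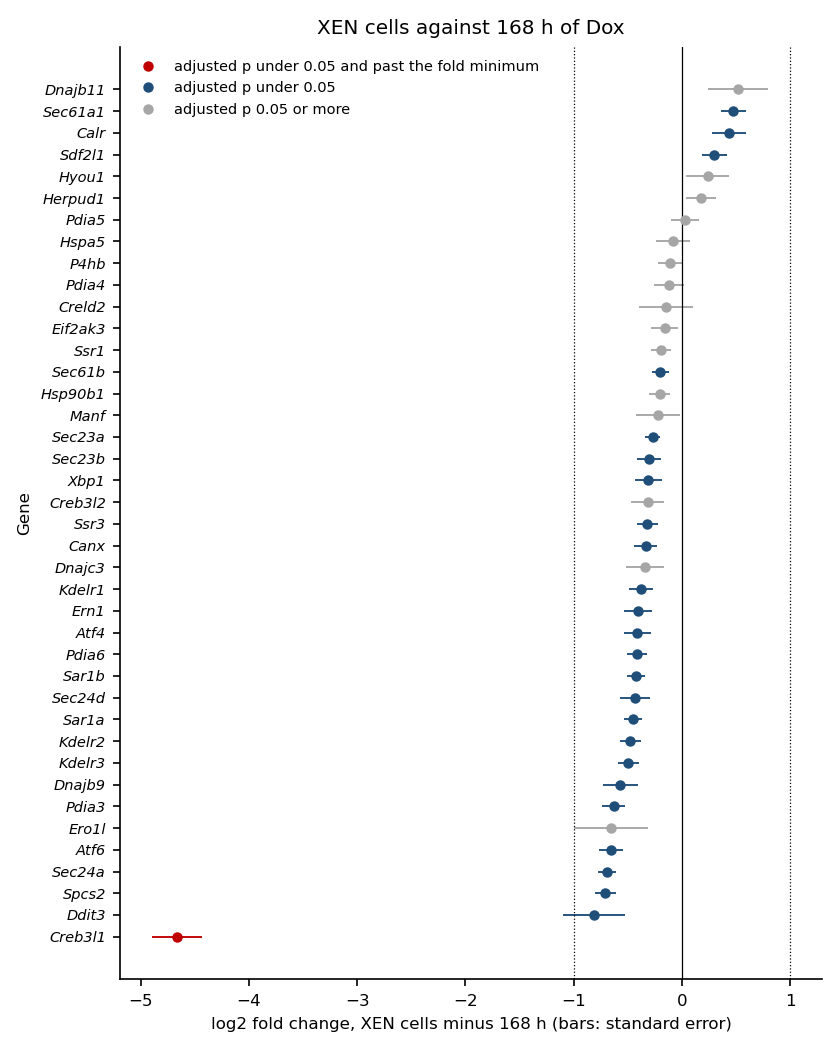
Log2 difference of each member between XEN cells (n = 2) and 168 h of Dox (n = 3) on the log2(TPM + 1) scale, sorted by size, with bars for the standard error, dotted lines at the fold minimum of 1 and colors for the test. Most members lie between 0 and -1, and Creb3l1 stands alone at -4.66.

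The siRNA series asks whether OCT4, still present early in induction, affects the response. Of 37 members tested, 1 was changed downward with Oct4 siRNA, Creb3l1, and 0 upward. Changed here means limma adjusted p below 0.05 and a log2 change of more than 0.5. Of all 6264 genes tested, 1.72% were changed downward, and 1 of 37 members is near that share. Creb3l1 was at 13.5, 12.7, 7.40, 26.2, 10.2 and 9.86 TPM in siCTL and at 3.46, 3.46, 1.32, 1.65, 4.24 and 4.85 TPM in siOct4 libraries. The groups did not overlap. The log2 difference was -1.75 ± 0.31 (SE, adjusted p = 0.00503 in limma). Because most consecutive libraries were close, although siCTL 3 and 4 were not (SD 0.771), they were also averaged to 3 against 3, and the adjusted p from limma was then 0.119, or 0.0147 when the averaged pairs were blocked.

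With libraries blocked by replicate number, 2 of 37 members were changed downward, a share near the 6.15% of all genes. The added one was Sec24d. It was at 60.0, 55.2, 55.0, 106.9, 80.3 and 73.4 TPM in siCTL and at 43.0, 33.6, 47.5, 67.4, 52.5 and 50.9 TPM in siOct4. The groups overlapped, but each siOct4 library was below the siCTL library of the same number. The log2 difference was -0.53, with limma adjusted p = 0.225 without and 0.0162 with the block. The blocked call was lost after median-of-ratios scaling (-0.37, limma adjusted p = 0.0674) and with consecutive libraries averaged (limma adjusted p = 0.109). Kdelr1 was at 154.3, 143.8, 143.7, 249.6, 162.5 and 148.4 TPM and at 111.9, 101.8, 106.0, 150.4, 142.7 and 129.9 TPM, with 1 siOct4 library above the lowest siCTL ones. Its log2 difference of -0.42 had limma adjusted p = 0.237 without and 0.0325 with the block, below the fold minimum, and its blocked value was 0.121 after scaling and 0.188 with libraries averaged. Creb3l2 differed by -0.65 (limma adjusted p = 0.390, and 0.0597 with the block). Its siCTL libraries were at 28.9, 29.6, 16.9, 68.7, 44.7 and 35.9 TPM and its siOct4 libraries at 22.1, 12.7, 14.0, 23.7, 34.3 and 30.8 TPM.

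The remaining members had differences from -0.43 to 0.30 that did not pass with or without the block. Their median lay close to that of all genes, since all 37 together had -0.14 against -0.12, and 0.02 against 0.01 after median-of-ratios scaling. Hspa5 differed by -0.10 (limma adjusted p = 0.829). Ddit3 was at 41.4, 39.3, 22.6, 17.8, 20.7 and 19.5 TPM in siCTL and at 57.7, 77.9, 21.4, 26.8, 19.6 and 18.9 TPM in siOct4, where the first 2 libraries of each group were the highest. The difference was 0.30 (limma adjusted p = 0.780). The summed level of 7 PrE markers was 1034 to 2882 TPM in siCTL and 530.2 to 1178 TPM in siOct4 libraries. Of the 7, 0 were changed downward, or 4 with the block, against 1.72% and 6.15% of all genes. Of 6 visceral endoderm markers 3 were in the table, with sums of 170.1 to 725.3 TPM and 28.4 to 141.2 TPM, and 2 of the 3 were changed downward, or 3 with the block. The sums of 6 parietal endoderm markers were 4370 to 9068 TPM and 3611 to 6673 TPM, with 0 changed. The 6 fibroblast markers in the table summed to 31.1 to 217.1 TPM and 32.9 to 219.1 TPM, with 0 changed. The PrE markers did not move as 1: mean Sox17 was 44.8 TPM in siCTL and 45.1 TPM in siOct4, and Foxa2 24.1 and 25.7 TPM. Gata6, Gata4, Sox7, Pdgfra and Dab2 had lower means in siOct4, and Dab2, at 883.3 and 448.3 TPM, was the largest part of the sum. Creb3l1 thus had the direction of these lower PrE markers and of the 3 visceral endoderm markers. Sec24d was also lower on average, but its call held only with the replicate block, and not after scaling or with libraries averaged. The part of such markers in these differences was not tested.

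**Figure D4:**
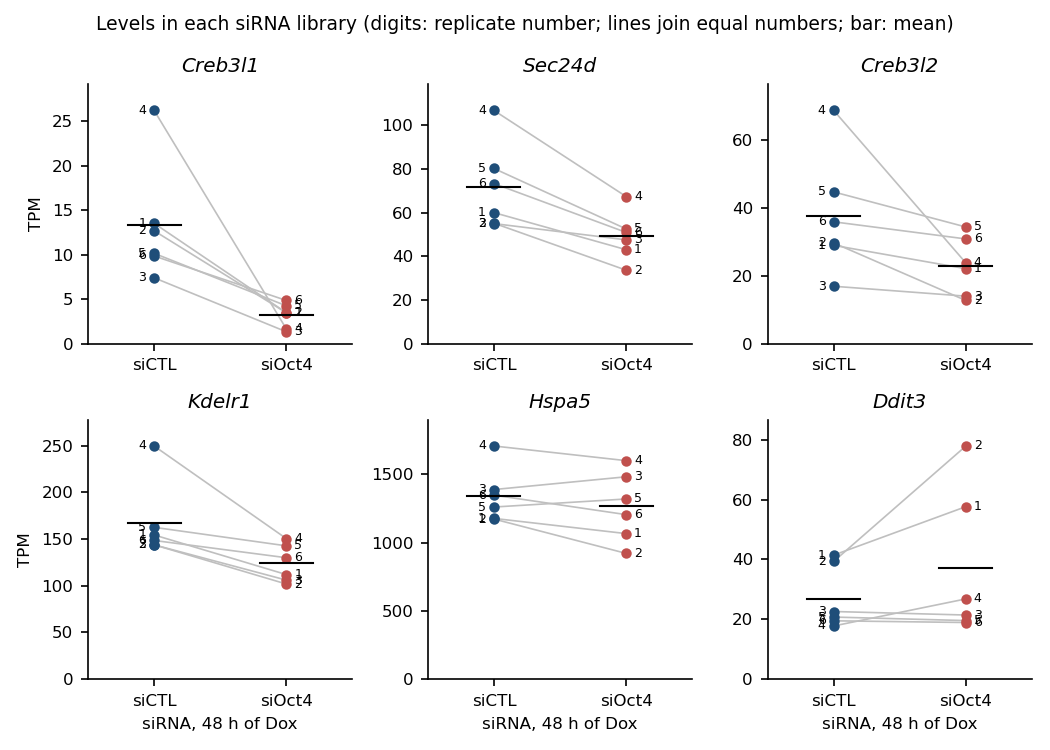
TPM of selected members in the 6 siCTL and 6 siOct4 libraries, with lines joining libraries of the same replicate number and bars at the group means, on linear axes from 0. Of the 6 genes drawn, Creb3l1 is the one whose groups do not overlap, and its highest siCTL library is number 4 at 26.2 TPM.

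The other genes of the secretory pathway were read in 4 lists outside the 40 members. At 168 h 17 of 20 further translocon, oligosaccharyltransferase and signal peptidase genes were changed upward, 18 of 20 further folding enzymes, 11 of 14 genes of ER-associated degradation and 13 of 16 tested genes of ER exit, with 0 changed downward in each list. Of all genes tested, 22.6% were changed upward and 16.5% downward. The medians of the 4 lists were 1.83, 2.07, 1.99 and 1.52. Among folding enzymes Txndc12, a thioredoxin-like ER protein, went from a mean of 45.4 TPM at 0h to 554.6 TPM at 168 h (log2 change 3.58). Among degradation genes Sel1l, the adaptor of the SYVN1 ligase, changed by 2.69. Among exit genes Tmed3 and Surf4, both cargo receptors, changed by 3.60 and 3.38. At 48 h these lists had 11, 9, 9 and 6 genes changed upward, against 9.14% of all genes.

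Targets of amino acid shortage and the integrated stress response, the wider response that PERK shares, moved in both directions. Of 13 tested, 3 were changed upward at 168 h, near the share of all genes (22.6%). Downward 7 were changed, against 16.5% of all genes, and the list median was -1.17. Atf3, a stress-induced transcription factor, rose from 2.86 to 133.5 TPM (log2 change 5.17 ± 0.16, SE), and Ppp1r15a, a phosphatase subunit that reverses the response, and Sesn2 rose by 1.96 and 1.20. Psat1, an enzyme of serine synthesis, fell from 285.2 to 57.1 TPM, and Asns, Phgdh, Mthfd2, Trib3, Chac1 and Nupr1 also fell.

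Most chaperones outside the ER fell. Of 17 cytosolic and mitochondrial chaperones 10 were changed downward and 2 upward at 168 h, with a median of -1.04. Of all genes, 16.5% were changed downward and 22.6% upward. Hsp90aa1 fell from 3251 to 809.9 TPM (log2 change -2.01) and Hspb1 from 1161 to 336.1 TPM (-1.78). The 2 higher ones, Hspa1a (1.71 to 8.24 TPM) and Hspa1b, are near-identical copies whose reads cannot be assigned with certainty. The summed level of the 17 fell from 1.745% to 0.722% of all TPM, and was 0.921% in XEN cells. At 48 h 0 of the 17 were changed by the rule with the fold minimum. By then 26 ER members were changed upward, against 9.14% of all genes. The summed level of the 17 was nevertheless lower at 48 h, at 1.396% of all TPM. Hsp90aa1 was at a mean of 1722 TPM at 48 h, whereas Hspb1, at 1417 TPM, was above its 0h mean. After median-of-ratios scaling 1 was changed upward and 11 downward.

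**Figure D5:**
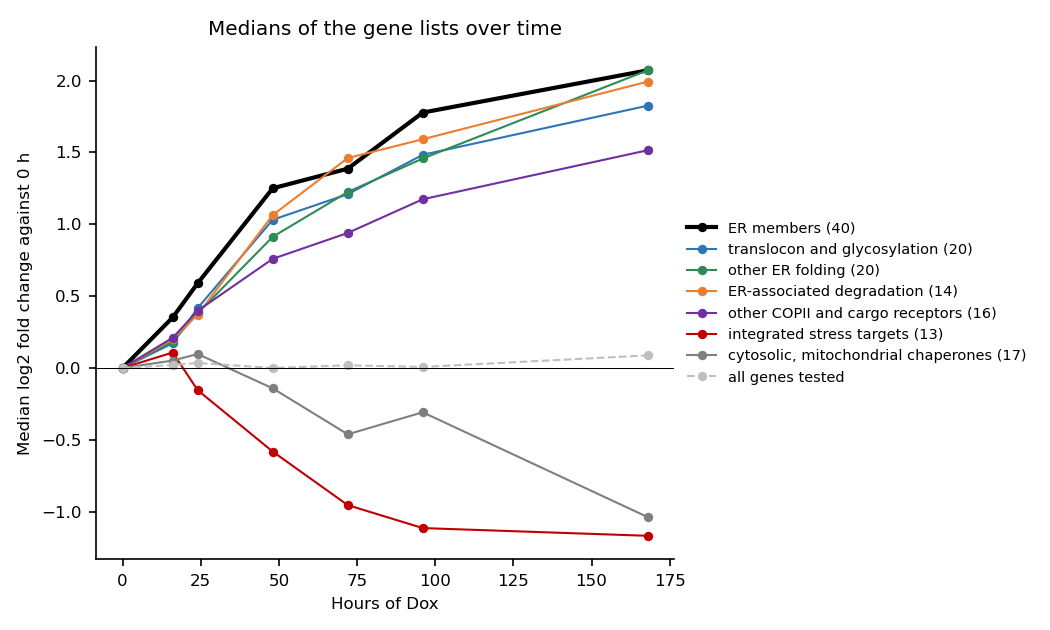
Median log2 change from 0h of the ER members, the further secretory pathway lists, the integrated stress targets, the cytosolic and mitochondrial chaperones and all genes, against hours of Dox. The ER lists rise to between 1.52 and 2.07 at 168 h, whereas the cytosolic chaperones and the stress targets end at -1.04 and -1.17 and all genes at 0.09.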

How the data were processed

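RNA-seq was measured in 35 libraries of polyA RNA, 23 of the induction series and 12 of the siRNA series. The authors trimmed and aligned stranded reads to mm10 (cutadapt, STAR), quantified genes with RSEM, left out libraries that were outliers by principal components, and deposited TPM, without counts. Columns of the induction table sum to 1000000 TPM, and those of the siRNA table, a subset of genes, to 274526.9 to 355895.1 TPM. In each library 12034 to 13109 and 5483 to 6142 genes reached 1 TPM. Depth is unknown, so no counting interval is given. The gene classes and group means in the siRNA table, which are the authors' own results, were not used. Tool versions of these steps are not given in the sources used here.

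The 40 members, the other lists and the tests were chosen with earlier results of these data known. Rows with the same symbol (60 symbols) were reduced to the one with the highest mean. Genes with a group mean of at least 1 TPM in any group were kept, 15057 and 6264. All 23 induction libraries entered 1 limma fit (version 3.58.1, R 4.3.3; trend and robust) on log2(TPM + 1), and the siRNA libraries another, with p-values adjusted by Benjamini-Hochberg over all genes tested. Fold changes on this scale understate those of low genes. Changed means adjusted p under 0.05 and an absolute log2 change over 1, or over 0.5 in the siRNA series, after the authors' thresholds. Members named in full were fixed by rule: the sensors and their factors, the KDEL receptors, the members with the largest changes at 168 h, and those changed by siOct4. Those named for their libraries at 72 h, for their order within a pair or for being late were chosen after their values were seen.

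In the siRNA series libraries with the same number deviated together in all 6 pairs (r 0.255 to 0.757, against a mean of -0.0713 for other numbers). Most consecutive libraries were also close, so these r values alone do not show that the numbers pair the samples. The paper used a paired test over 6 independent knock-downs for endogenous Gata6. A fit with the replicate block is therefore printed beside results it changes. On simulated data the induction fit recovered 195 of 200 genes changed by a log2 of 2 (97.5%; 12850 genes, 13 false calls), and the siRNA fit 106 of 200 changed by a log2 of 1 (53.0%; 6144 genes, 5 false calls). The simulated noise was drawn independently for each gene and library, without close or outlying libraries. Hits were scored on adjusted p alone, so these rates need not hold for the real libraries. Gene positions are from GENCODE on mm10 and promoters from RefSeq. Alternatives were another pseudocount, low-value filter, threshold, scaling, set of libraries, and each replicate left out.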

Additional observations from a re-analysis of the deposited data

Results flagged for a closer look

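For the 37 members in the siRNA table, each group's lowest and highest library was compared with the rest of its group by the size of the gap. A single library stood apart in 12 of these 74 groups of 6. About 3.7 would do so by chance if the genes were independent. The genes share the same libraries, so 12 cannot be read against that number. All 12 were in siCTL, 7 of them through library 4 and 5 through library 3. On the log2(TPM + 1) scale, siCTL 4 was high for Hsp90b1 (11.24; others 10.60 to 10.83), Hyou1 (8.01; others 6.64 to 7.11), Dnajc3 (6.45; others 5.37 to 5.65), Pdia3 (10.11; others 9.56 to 9.66) and Pdia4 (8.43; others 7.83 to 7.97). It was also high for Kdelr1 (7.97; others 7.18 to 7.35) and Kdelr2 (7.43; others 6.72 to 6.86). In siCTL 3 the low values were Atf6 (3.66; others 5.21 to 5.53), Ssr3 (8.31; others 8.97 to 9.16), Sec23a (5.71; others 6.74 to 6.86), Sec24a (3.34; others 4.85 to 5.51) and Sar1a (6.85; others 7.37 to 7.63). In TPM, Atf6 was at 11.7 in siCTL 3 and at 35.9 to 45.1 in the other siCTL libraries, and Dnajc3 at 86.5 in siCTL 4 and at 40.3 to 49.2 in the others. The cause was not tested.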

How the results depend on the processing

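Of 224 counts of members under the alternatives, 189 stayed within 1.5 times of the reported count and 35 did not, 29 of these among counts on adjusted p alone. Leaving out each replicate in turn gave 36 to 37 members higher at 168 h, 33 to 35 at 96 h, 29 to 30 at 72 h, 23 to 27 at 48 h, 5 to 11 at 24 h (11 without replicate 3) and 32 to 34 in XEN cells. On adjusted p alone the count at 16 h was 5 to 26 with a library or replicate left out and 13 at an adjusted p of 0.01. For XEN against 168 h it was 7 to 29 lower and 0 to 5 higher with a library or replicate left out, 10 lower after median-of-ratios scaling, 1 higher with no filter on low values, and 13 lower and 1 higher at an adjusted p of 0.01. With no fold minimum the counts were 20 at 16 h, 31 at 24 h and 22 lower for XEN against 168 h. The steps between neighbouring times moved most. From 16 to 24 h the count was 12 without 48h replicate 3, 13 without 72h replicate 3, 0 to 28 with each replicate left out and 2 at an adjusted p of 0.01. From 48 to 72 h it was 8 with the compared groups alone and 9 to 20 with each replicate left out; from 72 to 96 h, 0 with the compared groups alone, 0 to 28 with each replicate left out and 15 at an adjusted p of 0.01; and from 96 to 168 h, 14 to 27 with each replicate left out. For siOct4 the count was 0 with consecutive libraries averaged and 2 with the replicate block. By the rule with a fold minimum, 210 values for single genes kept their call; Creb3l1 with siOct4 lost it with consecutive libraries averaged (limma adjusted p = 0.119), and Sec24d gained it with the replicate block (0.0162), but not with the block after scaling (0.0674) or on averaged libraries (0.109). For genes called on adjusted p alone, a check added after the data were seen, 232 values kept the call, 35 lost it and 2 gained it, and 14 of these 37 came without replicate 1 and 9 without replicate 2. Apart from Sec23b at 168 h, which took the opposite sign after median-of-ratios scaling, none of the single gene values checked here reversed. In the induction series, same-numbered libraries did not deviate together (mean r 0.0338 over 77 pairs, lowest -0.248), and the replicate block gave 37 members at 168 h. Median-of-ratios scaling moved the median of all genes at 168 h from 0.09 to -0.05, and that of siOct4 from -0.12 to 0.01. Depth is unknown, so which low values it limits cannot be given.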
